A study of Mus musculus with 17 samples.

Results

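The BCL2 family decides whether a cell opens the outer membrane of its mitochondria and dies. The 10 genes described here were picked by symbol, with earlier results of these data known but no measured value in the rule, from the 56305 genes listed in the count tables: the survival genes Bcl2, Mcl1, Bcl2l1, Bcl2a1b and Bcl2a1d, the effectors Bax and Bak1, and the BH3-only genes Bcl2l11, Bid and Bbc3. All 10 were found in both tables and all 10 passed the filter on low counts. The RNA was bulk bone marrow RNA of C57BL/6 mice that had acute myeloid leukaemia. Mice of both groups carried Dnmt3aR878H/+;Npm1cA/+, so neither group is free of these alleles. The control group held 8 libraries. The other group held 9 libraries labelled Mt1ko, in which the metallothionein gene Mt1 had been targeted with CRISPR-Cas9 and which the genotype label calls a knockdown. Every library was labelled a technical replicate, and the authors' second table adds them into 6 samples, named here by their library numbers: controls 1-3, 7-9 and 14-15, and Mt1ko 4-6, 10-12 and 16-18. Age, sex, guide RNAs and the number of animals behind a sample: not given in the sources used here. For that reason a p-value below measures only how these 6 samples vary, and some of that variation may be technical.

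Survival proteins of this family, such as BCL2, MCL1, BCL-XL (from Bcl2l1) and A1 (from the Bcl2a1 copies), hold the death proteins in check. BAX and BAK1 are the effectors that oligomerise into pores, so that cytochrome c escapes and caspases are activated. BH3-only proteins such as BIM (Bcl2l11), BID and PUMA (Bbc3) sense stress and bind either the survival proteins or the effectors through a short helix, the BH3 domain. In acute myeloid leukaemia the balance is of clinical use, since drugs that mimic the BH3 helix block BCL2, and leukaemias of monocytic character are known to lean more on MCL1 and A1.

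The coding stretch around the BH3 core is shown because most of these genes share that core. In the annotated coding sequences (GENCODE vM21, build GRCm38), 8 of the 10 members had 1 in-frame match to the core pattern of a leucine, any 3 residues, a glycine or alanine, and an aspartate. Capitals mark the bases of that core, and each run is read 5′ to 3′ on the coding strand.
Bcl2: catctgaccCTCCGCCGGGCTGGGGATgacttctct
Mcl1: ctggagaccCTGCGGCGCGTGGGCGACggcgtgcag
Bcl2l1: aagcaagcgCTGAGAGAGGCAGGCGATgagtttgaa
Bax: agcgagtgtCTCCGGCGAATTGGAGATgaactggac
Bak1: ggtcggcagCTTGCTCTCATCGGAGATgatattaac
Bcl2l11: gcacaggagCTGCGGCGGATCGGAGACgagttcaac
Bid: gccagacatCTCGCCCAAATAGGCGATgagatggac
Bbc3: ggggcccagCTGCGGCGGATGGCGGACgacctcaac
Of these 8, 7 carried the glycine and Bbc3 carried the alanine. Each stretch lies within 1 coding exon. The Bcl2 stretch is at chr1:106712575-106712610 (minus strand), that of Mcl1 at chr3:95659427-95659462 (plus) and that of Bcl2l1 at chr2:152829697-152829732 (minus). Those of the effectors are at chr7:45465997-45466032 for Bax and chr17:27022531-27022566 for Bak1, both on the minus strand. Those of the BH3-only genes are at chr2:128147141-128147176 for Bcl2l11 (plus), chr6:120897289-120897324 for Bid (minus) and chr7:16313764-16313799 for Bbc3 (plus). The remaining 2 members, Bcl2a1b and Bcl2a1d, had no match, which says only that these letters are not in their coding sequences.

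The Bcl2a1 copies are shown because their sequences bear on how far their counts can be told apart. The mouse has several near-identical copies of this gene on chromosome 9. The first 150 coding bases of the 2 listed members and of another copy, Bcl2a1a, differ at 7 positions, printed in capitals.
Bcl2a1b: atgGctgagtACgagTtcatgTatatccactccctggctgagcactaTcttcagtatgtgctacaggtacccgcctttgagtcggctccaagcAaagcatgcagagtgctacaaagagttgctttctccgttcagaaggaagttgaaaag
Bcl2a1d: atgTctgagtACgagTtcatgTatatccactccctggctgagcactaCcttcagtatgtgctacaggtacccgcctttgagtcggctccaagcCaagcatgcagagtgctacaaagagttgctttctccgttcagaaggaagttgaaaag
Bcl2a1a: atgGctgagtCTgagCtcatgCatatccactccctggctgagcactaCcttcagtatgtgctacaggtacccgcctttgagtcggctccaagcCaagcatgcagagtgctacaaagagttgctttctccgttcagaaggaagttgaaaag
These coding stretches lie at chr9:89199360-89199509 (Bcl2a1b, plus), chr9:88731570-88731719 (Bcl2a1d, minus) and chr9:88957051-88957200 (Bcl2a1a, plus). Over the whole coding sequence of 516 bases, Bcl2a1b and Bcl2a1d differ at 6 positions, an identity of 98.8%, and share a run of 217 identical bases. The counting of reads that fit several copies is a setting not given in the sources used here, so the value of any single copy is uncertain.

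Library totals ran from 27124722 to 38645072 counts and totals of the summed samples from 64247249 to 106407001. Levels are given as CPM (counts per 1000000), with each total first scaled by TMM, a method that sets the bulk of genes equal between samples. Mt1, the targeted gene, was 332.6 to 449.4 CPM in the control libraries and 49.3 to 95.8 CPM in 8 of the 9 libraries labelled Mt1ko. The library labelled Mt1ko 6 held 316.9 CPM and so went against its label. The log2 fold change of Mt1 over the sums was -1.85 (SE 0.34; edgeR adjusted p = 1.00), and -2.30 with library 6 left out (edgeR adjusted p = 0.0102). Libraries 10 to 12 also stood apart: their share of counts from mitochondrial ribosomal RNA was 21.9% to 30.2%, against 4.58% to 11.2% in the other 14, and 11548 to 13174 genes were detected in them against 14823 to 17739. The labelled tissue was checked against 10 monocyte and macrophage markers, which summed to 6540 to 10697 CPM in the control libraries and 7442 to 9352 CPM in the Mt1ko libraries. Mast cell and basophil markers, 11 of 12 detected and Mrgprb2 at 0, summed to 6.98 to 2108 CPM in control and 38.3 to 7795 CPM in Mt1ko libraries, led by sample 10-12 at 5304 CPM. Neutrophil markers, 12 of 13 detected and Camp at 0, summed to 200.5 to 434.0 CPM in control and 129.3 to 410.6 CPM in Mt1ko libraries. Megakaryocyte and platelet markers (4 of 6 detected) summed to 68.1 to 194.8 CPM and 186.6 to 287.5 CPM in the same order. Erythroid markers (7 of 8 detected) reached at most 153.8 CPM in any library, with a control median of 6.76 CPM, and T and NK cell markers (5 of 7 detected) at most 9.90 CPM.

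Mcl1 was by far the most abundant member per length, the effectors came next, and the BH3-only genes lay in the lower part of the order together with Bcl2 and the Bcl2a1 copies. On the scale of CPM per kilobase of annotated exon, Mcl1 stood at 157.5 ± 7.1 in the control samples (SD, n = 3), followed by Bax at 64.3 ± 6.4, Bak1 at 30.7 ± 3.6 and Bcl2l1 at 14.1 ± 2.6. These 4 levels did not overlap in any of the 6 samples of either group: Mcl1 was at least 144.6, Bax 50.8 to 71.5, Bak1 24.0 to 39.6 and Bcl2l1 11.5 to 18.0 CPM per kilobase. Next came Bid at 8.28 ± 2.20, Bcl2l11 at 8.22 ± 3.59 and Bcl2 at 5.76 ± 0.83 CPM per kilobase in control (SD, n = 3 each), and their differences were within the spread between samples. In sample 7-9 the order of the fourth place changed, since Bcl2l11 reached 12.4 CPM per kilobase there and Bcl2l1 11.5. By control mean, Bcl2a1d, Bcl2a1b and Bbc3 were lowest, at 4.07 ± 3.56, 3.15 ± 3.32 and 2.14 ± 0.66 CPM per kilobase in control (SD, n = 3 each), and they could not be ordered. The Bcl2a1 copies changed place with the middle genes between samples: per kilobase, Bcl2a1d (7.84 CPM) and Bcl2a1b (6.97 CPM) exceeded Bcl2l11 (6.31 CPM) and Bcl2 (5.96 CPM) in control 1-3, and Bcl2a1b (11.9 CPM) exceeded Bid (9.09 CPM) in Mt1ko 4-6. Among survival genes, Mcl1 thus exceeded Bcl2 27.6-fold ± 2.9 per kilobase in control and 25.3-fold ± 2.5 in Mt1ko (SD, n = 3 each), with 22.4-fold the lowest in any sample, 10-12. Exon lengths merge all annotated transcripts, from 817 bases for Bcl2a1b to 9157 for Bcl2, and can exceed those of the transcripts that the cells used.

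**Figure D1:**
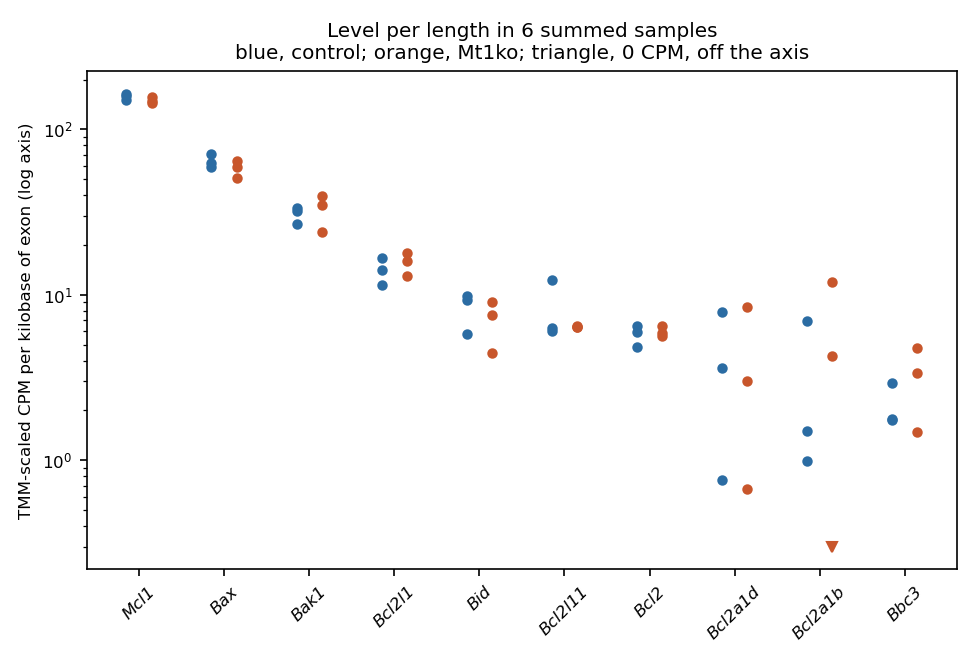
Level of the 10 members in the 6 summed samples (points; blue, control; orange, Mt1ko), as TMM-scaled CPM per kilobase of exon on a log axis, ordered by the control mean. Mcl1 lies between 144.6 and 163.8 in every sample, above all other members, and the triangle marks Bcl2a1b at 0 CPM in sample 10-12.

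None of the 10 members was called between Mt1ko and control, and none separated the groups. By the edgeR quasi-likelihood test with adjustment over 16666 genes, 0 members passed an adjusted p under 0.05, as did 0% of all genes tested. Mt1, the targeted gene, was among those not called by this fit, at a log2 fold change of -1.85, so a lack of calls says little about modest changes. At an unadjusted p under 0.05 the count was 0 members, against 1.03% of all genes, 0.522% higher and 0.504% lower in Mt1ko. DESeq2 and limma-voom also called 0 members. With library 6 left out of its sum, and with libraries 10 to 12 left out as well, edgeR again called 0 members. The 3 Mt1ko samples lay entirely above or below the 3 controls in 0 of the 10 members, against 7.1% of all genes tested, 2.74% higher and 4.36% lower in Mt1ko. Of the members, 5 had a positive and 5 a negative log2 fold change, with a median of 0.02 beside -0.01 over all genes. For 7 of the 10 members, and for 45.3% of all genes, the 95% interval excluded log2 differences beyond 1 unit either way. The exceptions were the scarce members Bcl2a1b, Bcl2a1d and Bbc3, whose intervals were wider. Exact permutation tests over the 6 samples, which cannot go below p = 0.1 with 3 against 3, gave 0.2 (Mcl1) to 1 (Bcl2l11) for the 10 members.

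**Figure D2:**
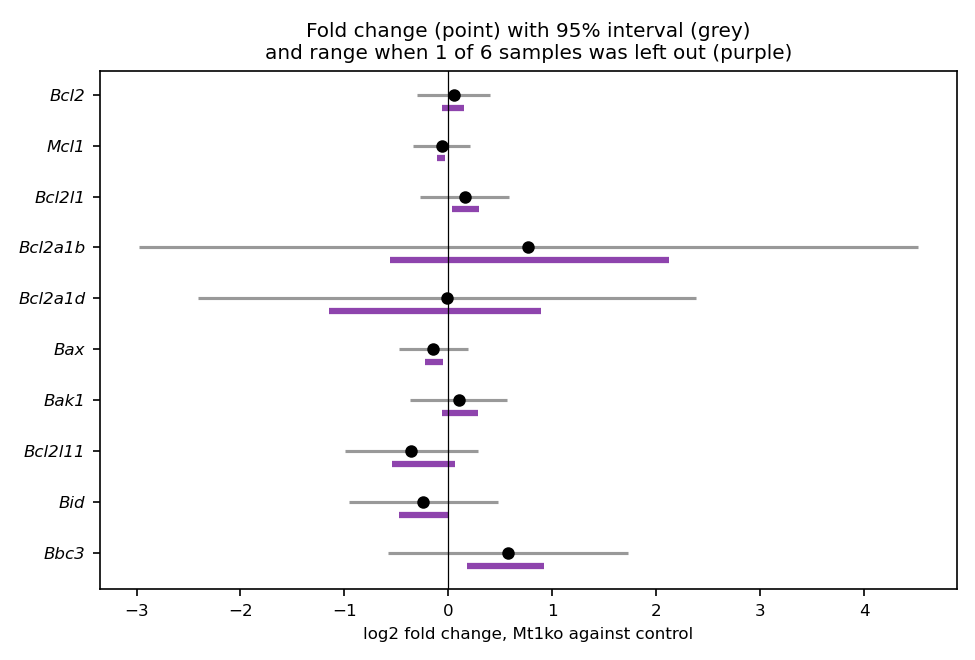
Log2 fold change of Mt1ko against control for each member (points), with the 95% interval of the edgeR fit (grey) and the range obtained when each of the 6 samples was left out in turn (purple). Every interval includes 0; it is narrowest for Mcl1, from -0.34 to 0.21, and widest for Bcl2a1b, from -2.98 to 4.52.

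Mcl1 encodes a short-lived survival protein that many blood cells need. It was 543.0, 560.0 and 512.0 CPM in control samples 1-3, 7-9 and 14-15, and 540.3, 494.4 and 509.1 CPM in Mt1ko samples 4-6, 10-12 and 16-18. All 6 values lay within 1.13-fold of each other, and the groups overlapped. Between groups Mcl1 differed by -0.07 on the log2 scale (SE 0.12, with a 95% interval of -0.34 to 0.21; edgeR adjusted p = 1.00). Single libraries ran from 425.5 CPM in library 12 to 615.6 CPM in library 9, and the widest spread within a sample was that of 10-12, from 425.5 to 588.8 CPM. Mcl1 (ENSMUSG00000038612) spans 95658788 to 95663176 on the plus strand of chromosome 3, a compact protein-coding gene.

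Bcl2, the founding survival gene and the target of BH3-mimetic drugs, lay within 1.34-fold across the 6 samples. It was 54.6, 59.4 and 44.4 CPM in controls 1-3, 7-9 and 14-15, and 53.7, 59.1 and 51.6 CPM in Mt1ko 4-6, 10-12 and 16-18. The highest control and the highest Mt1ko sample were thus at the same level, and control 14-15 was the lowest of the 6. A log2 fold change of 0.05 (SE 0.15, 95% interval -0.30 to 0.41; edgeR adjusted p = 1.00) changed sign with the samples kept, from -0.06 without control 14-15 to 0.15 at most. The steadiness of the sums hid uneven libraries: within 10-12 they held 36.4, 88.0 and 47.1 CPM, so that its highest library, 11, was also the highest of all 17. Bcl2 (ENSMUSG00000057329) covers 106538178 to 106714274 on the minus strand of chromosome 1.

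Bcl2l1, which encodes the survival protein BCL-XL, varied more between samples than within them. It was 76.2, 52.5 and 64.6 CPM in controls 1-3, 7-9 and 14-15, and 82.4, 59.8 and 73.6 CPM in Mt1ko 4-6, 10-12 and 16-18. Low and high samples occurred in both groups, with control 7-9 and Mt1ko 10-12 the 2 lowest. Between groups, Bcl2l1 differed by 0.16 on the log2 scale (SE 0.19, with a 95% interval of -0.27 to 0.59; edgeR adjusted p = 1.00). In sample 7-9 the 3 libraries held only 50.3 to 54.6 CPM, and in sample 4-6 they held 79.8 to 83.6 CPM. The pair in 14-15 was uneven, at 75.8 CPM in library 14 and 53.4 CPM in library 15. Bcl2l1 (ENSMUSG00000007659) lies at 152780668 to 152831728 on the minus strand of chromosome 2.

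The Bcl2a1 copies had the most extreme contrasts of the family, and these too ran across the groups. A1 is a survival protein that NF-kB induces in myeloid cells. Bcl2a1b was 5.69, 0.812 and 1.22 CPM in controls 1-3, 7-9 and 14-15, and 9.69, 0 and 3.49 CPM in Mt1ko 4-6, 10-12 and 16-18. It had 0 counts in each of libraries 10, 11 and 12, the only member whose levels in those 3 were below all other libraries, as 4.8% of all genes were. That order was picked after the values had been seen and is no test. The 0 counts in these libraries allow up to 0.0377 CPM in their sum by the limit of 3 counts (counting error only). Bcl2a1d was 6.76, 0.657 and 3.12 CPM in the same controls and 7.28, 0.579 and 2.60 CPM in the same Mt1ko samples, with 0 counts in libraries 9, 11 and 12. For both copies, controls 7-9 and Mt1ko 10-12 were the 2 lowest samples and Mt1ko 4-6 the highest.

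Adding the 4 copies together removes the effect of how reads were divided among them, but not that of any shared reads left out of the counts. Their sum, Bcl2a1a and Bcl2a1c included, was 16.4, 1.47 and 9.00 CPM in controls 1-3, 7-9 and 14-15, and 21.7, 0.591 and 8.71 CPM in Mt1ko 4-6, 10-12 and 16-18. The copies together therefore kept the pattern of the single ones, with 7-9 and 10-12 far below the rest. Every library of 7-9 held at most 2.15 CPM and every library of 10-12 at most 1.85 CPM, while the other libraries held 4.76 to 27.8 CPM. Between groups the summed copies differed by 0.21 on the log2 scale (SE 1.14, with a 95% interval of -2.43 to 2.85; edgeR adjusted p = 1.00). For single copies it was 0.77 (SE 1.61) for Bcl2a1b and -0.01 (SE 1.03) for Bcl2a1d, both with an edgeR adjusted p = 1.00. Without Mt1ko 4-6 the value of Bcl2a1b was -0.56, and for Bcl2a1d it ran from -1.14 to 0.89 as single samples were left out. Bcl2a1b (ENSMUSG00000089929) lies at 89199209 to 89207827 on the plus strand of chromosome 9, and Bcl2a1d (ENSMUSG00000099974) at 88723285 to 88731914 on its minus strand.

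Bax is the effector that moves from the cytosol to mitochondria, and its gene is a known target of p53. It was 98.7, 112.6 and 92.9 CPM in controls 1-3, 7-9 and 14-15, and 101.8, 80.0 and 93.4 CPM in Mt1ko 4-6, 10-12 and 16-18. The highest was a control and the lowest an Mt1ko sample, while the other 4 were mixed. Bax had a log2 fold change of -0.14 (SE 0.14, 95% interval -0.48 to 0.19; edgeR adjusted p = 1.00), and of -0.05 without Mt1ko 10-12. Bax (ENSMUSG00000003873) lies at 45461697 to 45466898 on the minus strand of chromosome 7.

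Bak1 encodes the effector that resides in the mitochondrial membrane. It was 80.3, 64.3 and 77.4 CPM in controls 1-3, 7-9 and 14-15, and 95.4, 57.9 and 84.6 CPM in Mt1ko 4-6, 10-12 and 16-18. Mt1ko samples were both the highest and the lowest, so the controls lay inside their range. The difference of 0.10 on the log2 scale (SE 0.20, with a 95% interval of -0.37 to 0.57; edgeR adjusted p = 1.00) was -0.06 without Mt1ko 4-6. The effectors differed in which control sample was high: sample 7-9 had the most Bax and the least Bak1 of the 3 controls. Per kilobase, Bax exceeded Bak1 2.68-fold there and 1.63-fold to 2.11-fold in the other 5 samples. Bak1 (ENSMUSG00000057789) lies at 27019810 to 27029009 on the minus strand of chromosome 17.

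Bcl2l11 encodes BIM, a BH3-only protein that binds every survival member and is induced when growth factors are withdrawn. It gave the clearest departure of a single sample. Its level was 50.6, 99.2 and 48.1 CPM in controls 1-3, 7-9 and 14-15, and 51.8, 51.4 and 51.3 CPM in Mt1ko 4-6, 10-12 and 16-18. Control 7-9 was 1.91-fold above the next sample, while the other 5 lay within 1.08-fold of each other. Its libraries 7, 8 and 9 held 92.8, 96.8 and 112.4 CPM, and the other 14 libraries held 38.0 to 64.9 CPM, so the 3 stood clear of all others. That pattern, libraries 7 to 9 above the other 14, was met by 1 of the 10 members and by 0.768% of all genes tested. The pattern was read off Bcl2l11 itself, so its count among the members was fixed beforehand and is no test.

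The group comparison of Bcl2l11 rested on that control sample. With all 6 samples it was -0.36 on the log2 scale (SE 0.27, 95% interval -0.995 to 0.28; edgeR adjusted p = 1.00). Without control 7-9 it was 0.07, where the mean of the remaining controls was 49.4 CPM against 51.5 ± 0.3 CPM in Mt1ko (SD, n = 3). Sample 7-9 also had the highest sum of monocyte and macrophage markers, 9937 CPM against 7072 to 8780 CPM in the other samples, with Lyz2 (lysozyme) at 5644 CPM against 2238 to 4589 CPM. Itgam, the other leading gene of that list, was not high there: it was 2856 CPM in 7-9, 2262 CPM in 10-12 and 2906 to 3624 CPM in the other 4 samples. The part of these markers in the Bcl2l11 level was not tested, and in bulk RNA a change in the number of cells cannot be told apart from a change in RNA per cell. Bcl2l11 (ENSMUSG00000027381) lies at 128126038 to 128162547 on the plus strand of chromosome 2.

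Bid encodes the BH3-only protein that caspase 8 cleaves, which links death receptors to mitochondria. It was 32.8, 20.4 and 34.9 CPM in controls 1-3, 7-9 and 14-15, and 32.3, 15.7 and 26.7 CPM in Mt1ko 4-6, 10-12 and 16-18. The 2 lowest samples were again control 7-9 and Mt1ko 10-12. Bid had a log2 fold change of -0.24 (SE 0.31, 95% interval -0.96 to 0.48; edgeR adjusted p = 1.00), and of 0.004 without Mt1ko 10-12. Libraries of that sample were uneven, at 8.13, 12.9 and 27.6 CPM. Bid (ENSMUSG00000004446) lies at 120891930 to 120916853 on the minus strand of chromosome 6.

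Bbc3 encodes PUMA, the BH3-only protein through which p53 triggers death. It was scarce, at 3.71, 6.17 and 3.77 CPM in controls 1-3, 7-9 and 14-15, and 7.16, 10.1 and 3.12 CPM in Mt1ko 4-6, 10-12 and 16-18. An Mt1ko sample was the lowest of the 6 and 2 others were the highest. Its log2 fold change of 0.58 was exceeded among members only by that of Bcl2a1b, and its 95% interval ran from -0.58 to 1.73 (SE 0.50; edgeR adjusted p = 1.00). It was 0.18 without Mt1ko 10-12 and up to 0.92 with another sample left out, and no such fit called it. Libraries within 10-12 again differed, at 11.2, 13.5 and 4.72 CPM. Bbc3 (ENSMUSG00000002083) lies at 16308393 to 16318205 on the plus strand of chromosome 7.

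**Figure D3:**
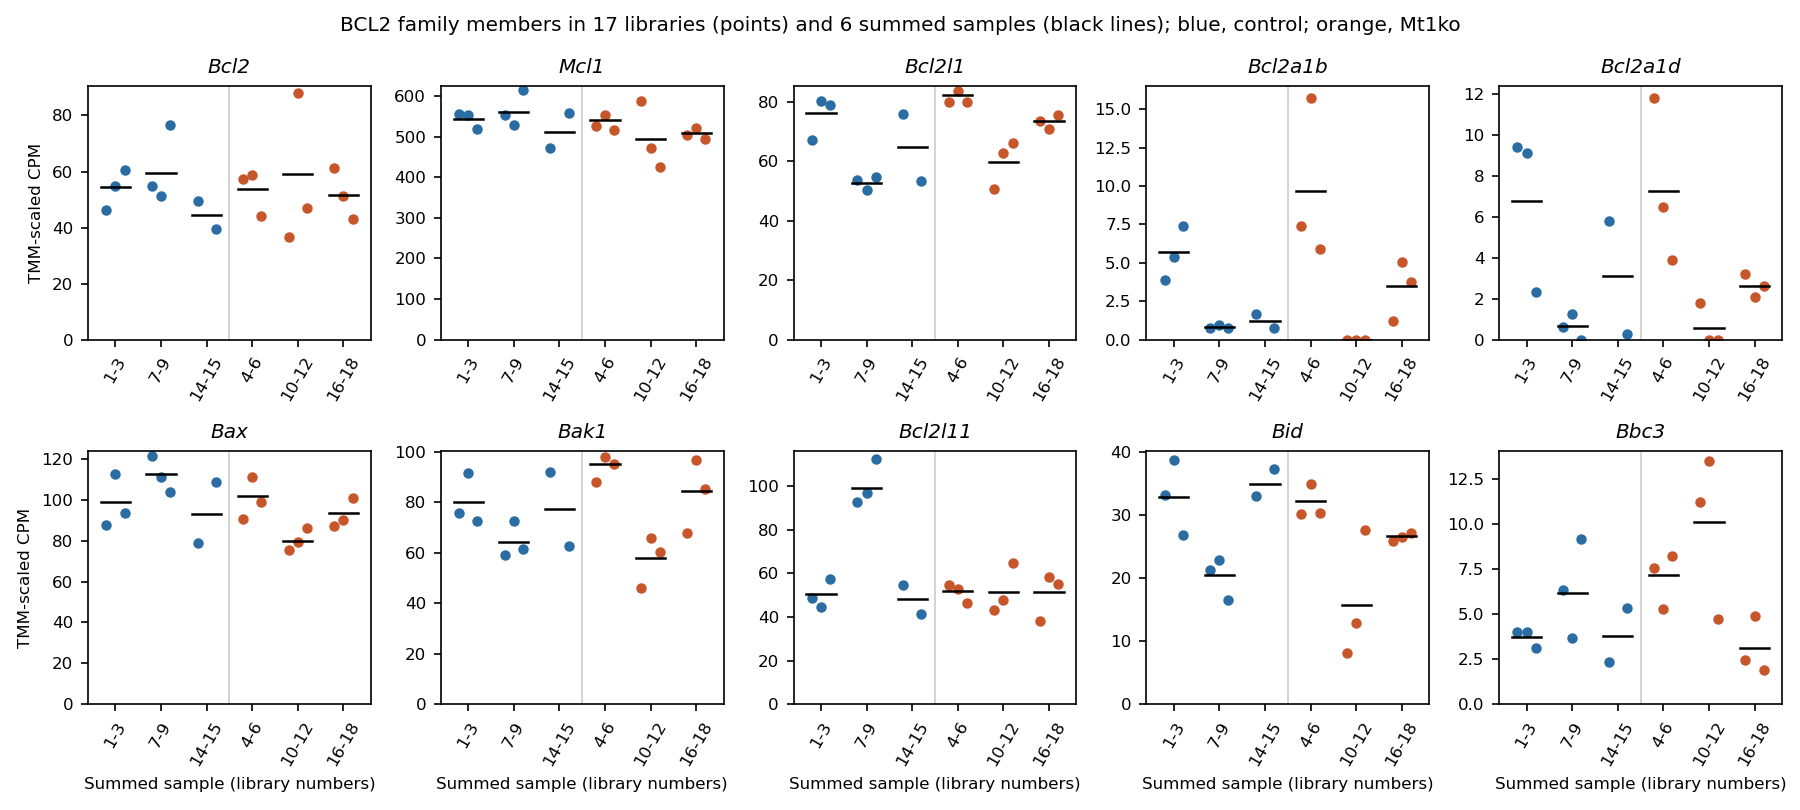
TMM-scaled CPM of the 10 members in 17 libraries (points; blue, control; orange, Mt1ko) and in the 6 summed samples (black lines), 1 panel per gene with its own axis from 0. Bcl2l11 is near 50 CPM in 5 samples and 99.2 CPM in control 7-9, and the Bcl2a1 copies are near 0 in control 7-9 and Mt1ko 10-12.

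The spread among the 6 samples was set beside the typical spread among libraries of 1 sample. On the log2(CPM + 1) scale, the means of the 6 samples spanned more than the median range within a sample in 9 of 10 members. The ratio of these ranges was 4.81 for Bcl2a1b, 3.75 for Bid, 3.30 for Bcl2l1 and 2.80 for Bcl2l11, and 1.3 for Mcl1. Bcl2 was the exception at 0.954. Libraries within 10-12 spanned more than the 6 means did for Bid (1.65 against 1.23), Mcl1 (0.468 against 0.203) and Bcl2 (1.25 against 0.432). A range over 6 means and a range over the few libraries of a sample are unlike measures. The share of all genes with a ratio above 1 was not taken, so this is not shown to be particular to the members. Samples 7-9 and 10-12, 1 from each group, were the 2 lowest of the 6 for 5 of 10 members, namely Bcl2l1, Bcl2a1b, Bcl2a1d, Bak1 and Bid, where 20.5% of all genes tested had that order. They were the 2 highest for 1 member, Bcl2, against 15.6% of all genes. This count was made after the values had been seen, and no test was made of it. It also counts Bcl2a1b and Bcl2a1d separately, although they are near-identical copies whose single values are uncertain. Mast cell and basophil markers summed to 831.5 CPM in 7-9 and 5304 CPM in 10-12, and to 166.7 to 676.3 CPM in the other 4 samples. Cpa3 (mast cell carboxypeptidase) was 224.1 and 1564 CPM there against 48.5 to 179.8 CPM, and Kit, the stem cell factor receptor, 58.5 and 296.9 CPM against 13.9 to 40.9 CPM. The mast cell and basophil sum was uneven within 7-9, at 688.6 CPM in library 8 and 2108 CPM in library 9. Library 7 summed to less than any Mt1ko library, of which the lowest held 38.3 CPM. Across libraries 7 to 9, Bak1 was 59.2, 72.6 and 61.7 CPM, Bcl2l1 53.6, 50.3 and 54.6 CPM, and Bid 21.3, 22.9 and 16.5 CPM. The summed Bcl2a1 copies were 1.37, 2.15 and 0.771 CPM in the same order. Neutrophil markers summed to less in samples 7-9 and 10-12, at 227.1 and 191.5 CPM against 301.8 to 402.5 CPM in the other samples. Elane (neutrophil elastase) was 6.71 and 1.37 CPM there against 27.0 to 80.0 CPM. Mmp8, the list's most abundant gene in control, was lowest in 1-3 at 164.4 CPM. It was 188.3 CPM in 7-9, 170.6 CPM in 10-12 and 205.7 to 216.5 CPM in the others. The part of either marker list in the member levels was not tested.

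**Figure D4:**
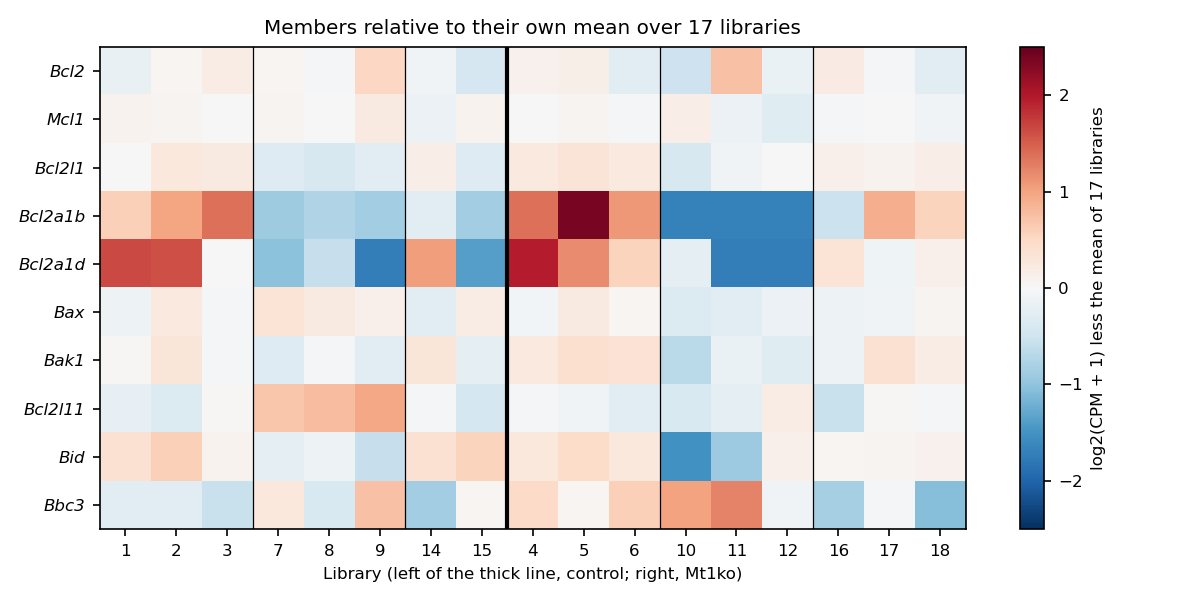
Each member in each library, as log2(CPM + 1) less the member's mean over the 17 libraries (red, above; blue, below), with thin lines between summed samples and a thick line between control (left) and Mt1ko (right). Libraries 7 to 9 are red for Bcl2l11, and libraries 7 to 9 and 10 to 12 are blue for the Bcl2a1 copies and mostly blue for Bcl2l1, Bak1 and Bid.

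The rest of the pathway held no gene called by edgeR, and 0 genes of these lists had an unadjusted p under 0.05. Of 16 other BCL2 family genes, 11 passed the filter, 0 were called in either direction, and 10 of the 11 had a negative log2 fold change (median -0.13, beside -0.01 over all genes). The remaining 5 were not tested, and Bok, another effector, had 0 counts in all 17 libraries. The most abundant in control by CPM were Bnip3 and Bnip3l, mitophagy receptors with a BH3-like motif. Bnip3 was 168.0, 308.3 and 198.5 CPM in controls 1-3, 7-9 and 14-15, and 152.9, 282.8 and 192.8 CPM in Mt1ko 4-6, 10-12 and 16-18, with 7-9 and 10-12 the highest. Bnip3l was 115.1, 163.3 and 127.7 CPM in the same controls and 110.9, 136.5 and 134.8 CPM in the same Mt1ko samples, again highest in 7-9 and 10-12. Neither passed the test (edgeR adjusted p = 1.00 for each).

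Downstream of the mitochondria, 0 of 10 genes of mitochondrial release and the apoptosome were called, and 6 of 10 had a positive log2 fold change (median 0.03). Vdac2, a channel that recruits BAK1, averaged 166.5 ± 14.2 CPM over the 3 controls and 172.6 ± 22.3 CPM over the 3 Mt1ko samples (SD, as in the values that follow). Vdac1 averaged 109.5 ± 6.7 and 100.8 ± 7.1 CPM. Among caspases and death receptor genes, 0 of 12 were called (median 0.04), led by Cflar, which restrains caspase 8, at 167.0 ± 24.2 and 160.8 ± 25.7 CPM. Tnfrsf1a, the TNF receptor, averaged 149.9 ± 22.4 CPM over the controls and 139.8 ± 39.3 CPM over the Mt1ko samples. Of the inhibitor of apoptosis genes, 0 of 5 were called (median 0.003). Birc6 was 611.9 ± 18.9 and 613.2 ± 64.3 CPM and Xiap, which blocks effector caspases, 109.1 ± 6.3 and 113.0 ± 2.2 CPM.

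Genes that set the MCL1 protein level and the transcription of the family also held no called gene. Of 4 genes of MCL1 turnover, 0 were called (median -0.0008). Huwe1, a ligase that marks MCL1 for destruction, averaged 536.0 ± 57.8 CPM over the controls and 529.1 ± 2.9 CPM over the Mt1ko samples (SD, n = 3 each). Usp9x, which removes that mark, averaged 282.8 ± 14.9 and 286.2 ± 25.1 CPM. Of 12 transcription factors that act on family genes, 0 were called and 10 had a positive log2 fold change (median 0.05). Atf4, of the integrated stress response, was 290.5 ± 80.0 and 285.7 ± 33.4 CPM, with control 7-9 lowest at 203.9 CPM. Cebpb, a myeloid factor, was 240.0 ± 22.1 and 207.1 ± 39.8 CPM. In the other pathway lists, the groups did not overlap in 1 of 12 caspase and death receptor genes and in 0 genes of the rest. Among the 12 transcription factors they did not overlap in 2, beside 7.1% of all genes tested. E2f1, a factor of the cell cycle, was 6.92, 7.08 and 7.48 CPM in the controls and 10.1, 14.6 and 8.70 CPM in the Mt1ko samples, in the order used above. Stat5a, which transmits cytokine signals, was 38.2, 35.9 and 34.0 CPM and 44.6, 42.8 and 44.7 CPM. Neither passed the test (edgeR adjusted p = 1.00 for each).

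The 2 members with at least 5 CPM whose libraries ranged most widely were Bbc3 and Bid, and the genes nearest to them over the 17 libraries were sought among 9078 others. Likeness was the root mean square difference of log2(CPM + 1) after centring each gene. For Bid, whose own SD was 0.54, the nearest were Rhbdf2 at 0.18, Tbrg4 at 0.19 and Tes at 0.21. Rhbdf2, for example, was 185.5, 109.5 and 166.3 CPM in controls 1-3, 7-9 and 14-15, and 185.5, 93.0 and 149.3 CPM in Mt1ko 4-6, 10-12 and 16-18, with the same 2 samples lowest. For Bbc3, whose own SD was 0.64, the nearest were Ndufb7 at 0.41, Arl4a at 0.42 and Mrpl57 at 0.42, so no gene followed it closely. Libraries of 1 sample share their source, and likeness across them is a description only.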

How the data were processed

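Both tables hold whole-number counts, deposited by the authors with no normalization: 1 for 17 libraries and 1 for their 6 sums. Each sum equalled the libraries its header names, with 0 genes differing. Per the labels' protocols, RNA was isolated on micro-scale columns with DNase treatment, and stranded total RNA libraries were made with a low-input kit. The submitters' processing notes name Trimmomatic 0.35, RSEM 1.3.3 and the builds GRCm38 and mm10. Aligner, strand setting and rounding: not given in the sources used here. Of 56305 genes, 55227 matched GENCODE vM21, the source of coordinates, exon lengths and coding sequences.

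The 6 sums were tested with edgeR 4.0.16 (filterByExpr, TMM, quasi-likelihood F test, group alone) in R 4.3.3, over 16666 genes, with Benjamini-Hochberg adjustment and a threshold of 0.05. TMM factors were 0.852 in sample 10-12 and 1.00 to 1.05 in the other sums. Standard errors were taken as the absolute log2 fold change over the square root of the F statistic. Log2 levels used a pseudocount of 1 CPM. Limits from 0 counts cover counting error alone. The scripts were tested on simulated counts whose spread between samples was capped, so this does not show which changes the fit could find in these data.

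The members, lists and alternatives were chosen with earlier results of these data known. The rule named the 10 members, Mt1, Cpa3, Kit, the 2 genes of each wider list with the highest control CPM, any called gene, and the 3 genes nearest to each of the 2 members of widest range. Mrgprb2, Camp, E2f1, Stat5a, Bok, Bcl2a1a, Bcl2a1c, Bmf and Pmaip1 were named outside it, once their values had been seen. Alternatives were RLE or upper quartile scaling, no filter or 1 CPM in every sample of a group, DESeq2 1.42.0, limma-voom 3.58.1, a threshold of 0.10, libraries entered singly (also with the second index sequence, or with the sample as a random effect), the Bcl2a1 copies added together, and leaving out samples, library 6, or the mitochondrial genome. The B cell marker list and 1 gene of the wider lists are not reported here.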

Additional observations from a re-analysis of the deposited data

Results flagged for a closer look

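Library values of the 10 members were examined in each group, 20 groups of values in all. Of these, 2 held 1 library well outside the others. For independent values, chance alone flags about 1 in 20. Libraries of a sample are not independent, so that rate is not shown to hold here, and the 2 flags are a description only. Bcl2 was 88.0 CPM in library 11, of Mt1ko 10-12, and 61.4 CPM in the library that came next in that group. Bcl2a1b was 15.7 CPM in library 5, of Mt1ko 4-6, and 7.41 CPM in the next.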

How the results depend on the processing

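No alternative run called a member. Over all genes, 0 were called as reported, and 1 with DESeq2, with 17 libraries singly, with the sample as a random effect, with library 6 left out, and with library 6 and libraries 10 to 12 left out. That gene was Mt1 each time. Mcl1, Bcl2l1, Bax and Bbc3 kept their direction under every alternative run, but not their size. Bbc3 had a log2 fold change of 0.076 without library 6 and libraries 10 to 12, and Bcl2l1 of 0.033 without control 7-9. The log2 fold change of Bcl2a1b turned to -1.20 with limma-voom, -0.014 with the index covariate and -1.01 with the random effect. That of Bcl2a1d turned to 0.15 with limma-voom, 0.045 with the index covariate, 0.23 without library 6 and 0.74 without library 6 and libraries 10 to 12. Bcl2 turned to -0.00058 with libraries singly and -0.0031 with the random effect, and Bid to 0.024 without library 6 and libraries 10 to 12. With each sample left out in turn, the range was -0.057 to 0.15 for Bcl2, -0.56 to 2.12 for Bcl2a1b, -1.14 to 0.89 for Bcl2a1d, -0.057 to 0.28 for Bak1, -0.54 to 0.066 for Bcl2l11 and -0.47 to 0.0043 for Bid. The cause of these turns was not tested beyond the samples left out. Bcl2a1b and Bcl2a1d had no value under the stricter filter or with the copies added together. The lowest adjusted p of any member under any alternative was 0.98. No paired analysis was possible because the groups share no replicate number. Among the members, only the Bcl2a1 copies had 0 counts in some libraries. Bcl2a1d had 0 counts in library 9, of 27210427 counts in all, and 90 in library 16, of 27124722. The cause of these zeros was not tested.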

Other observations

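Outside the 10 members, Pmaip1, the gene of the BH3-only protein NOXA that binds MCL1, stood at 14.8 ± 1.1 CPM per kilobase of exon in the controls (SD, n = 3). It was above Bid, Bcl2l11 and Bbc3 per kilobase in each of the 6 samples, with 10.9 in Mt1ko 16-18 as its lowest. Bmf, a BH3-only gene tied to the cytoskeleton, was 10.0, 18.6 and 12.2 CPM in controls 1-3, 7-9 and 14-15, and 6.79, 10.9 and 13.9 CPM in Mt1ko 4-6, 10-12 and 16-18. Like Bcl2l11, it was highest in control 7-9. Other BH3-only genes were not: control 7-9 was among the 2 lowest samples for Bid, Pmaip1 was highest in control 14-15 and Bbc3 in Mt1ko 10-12. The share of all genes highest in control 7-9 was not taken.

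Libraries 14 and 15 form 1 control sample, yet they differed in several members. Library 14 held more Bcl2l1 (75.8 against 53.4 CPM), Bak1 (91.9 against 62.7 CPM) and Bcl2a1d (5.82 against 0.276 CPM), and less Bax (78.8 against 108.7 CPM), than library 15. Mast cell and basophil markers summed to 6.98 CPM in library 14 and 1392 CPM in library 15, and their part in these differences was not tested.

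The libraries carried 3 second index sequences. Within the first (5 control and 3 Mt1ko libraries) the difference in mean log2(CPM + 1), Mt1ko less control, had the sign of the summed comparison in 7 of 10 members. Within the second (3 control and 4 Mt1ko libraries) it did so in 8 of 10. The sums are made of these same libraries, so agreement in sign is partly built in. Libraries of a sample are not independent, and the share of all genes with such agreement was not taken. Bcl2l11 differed by -0.33 in the first and -0.41 in the second, and each held control libraries of sample 7-9. Bak1 differed by 0.34 and -0.25, and Bid by 0.18 and -0.68. The remaining sequence was carried by 2 Mt1ko libraries and no control.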
